A study of Mus musculus with 4 samples.

Results

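Refed and fasted mouse liver were compared in animals in which both cytochrome b5 genes had been targeted. The genes described are those that passed the study's own threshold for a genotype difference in the fasted or the refed state and that reached at least 1 TPM (a transcript level per length, scaled to a fixed total per library) in at least 1 of the 2 targeted libraries. They numbered 810 of the 943 genes in the deposited tables, with 559 from the fasted table alone, 192 from the refed table alone and 59 from both. The remaining 133 genes stayed under 1 TPM in both targeted libraries. Just inside that limit lay Adamtsl4, with 1 TPM refed and 0.89 TPM fasted, and just outside it Lrrc8c, with 0.87 TPM refed and 0.97 TPM fasted. Genes in neither table were not analysed here, so the members are not a sample of all liver genes.

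Fasting turns the liver to the release of glucose, the burning of fatty acids and the making of ketone bodies, with the nuclear receptor PPARa as a main regulator. Feeding again brings insulin, which through the SREBP transcription factors, together with glucose acting through ChREBP, turns on the enzymes of glycolysis, fatty acid synthesis and sterol synthesis. Cytochromes b5 are small haem proteins of the endoplasmic reticulum and the outer mitochondrial membrane, and they pass electrons to fatty acid desaturases, sterol-synthesising oxidases and some P450 enzymes.

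Bulk RNA of whole liver was sequenced in 4 groups with 1 library each. The labels give the targeted groups as L_Cyb5b_shCyb5a liver, Refed and Fasted, and the control groups as WT_shNC liver, Refed and Fasted. The sources used here do not give the allele and promoter behind the Cyb5b targeting, the vector that carried the hairpin, strain, sex, age, the lengths of fasting and refeeding or the number of animals behind a library. With 1 library a side there is no replicate check and no test, and every fold below compares 2 libraries.

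Of the 5 hepatocyte markers chosen (Alb, Apoa1, Ttr, Tat and Hnf4a), 0 are in the tables, so the labelled tissue was not checked with them. Reads behind the TPM values were recovered from the deposited p-values, or estimated from FPKM (fragments per kilobase of transcript, also scaled to library size), for 773 members. Ranges in parentheses after a fold are 95% Clopper-Pearson intervals made from those reads. They cover counting error only, and no interval is given for the 37 members whose reads were not recovered. The estimated depth was about 14000000 reads in the targeted refed and 13600000 in the targeted fasted library.

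Both targeted genes were still transcribed in both targeted libraries. Cyb5a, the microsomal form, had 166 TPM in targeted refed and 207 TPM in targeted fasted liver, against 1274 TPM in control refed and 1686 TPM in control fasted liver. Its log2 ratio of refed over fasted targeted liver was -0.32 on TPM and -0.05 on FPKM. Cyb5b, the outer mitochondrial form, had 49.5 TPM in targeted refed and 27.4 TPM in targeted fasted liver, 1.80-fold higher (1.68 to 1.94). Control liver had 174 TPM of Cyb5b refed and 72.4 TPM fasted.

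Refed over fasted, 181 of the 810 members (22.3%) were at least 2-fold higher in targeted liver and 153 (18.9%) were at least 2-fold lower. The other 476 members (58.8%) lay within 2-fold, and the median log2 ratio was 0.26 with quartiles of -0.57 and 0.89. At 4-fold the counts were 59 higher and 65 lower, and at 10-fold they were 21 higher and 22 lower. Among members past 2-fold, the counting interval, where there was one, lay wholly beyond 2-fold for 78 higher and 108 lower genes. It excluded no difference for 301 of the members past 2-fold and included it for 2, and the rest had no interval. In the same genes control liver had 144 at least 2-fold higher (17.8%) and 336 at least 2-fold lower (41.5%), with a median of -0.76.

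The scale moved these counts. TPM was 1.25 times FPKM in the targeted refed and 1.504 times FPKM in the targeted fasted library, so log2 ratios are 0.27 higher on FPKM. On FPKM 253 members (31.2%) were at least 2-fold higher and 120 (14.8%) at least 2-fold lower, which put 67.8% of the called genes on the higher side, against 54.2% on TPM. With each ratio taken relative to the median of all members the counts were 132 higher and 180 lower, or 42.3% on the higher side. The sign of the ratio, with 0 counted as a sign of its own, differed between TPM and FPKM in 67 members. All 181 higher genes were past 2-fold on both scales, and so were 120 of the 153 lower genes. Below, levels are TPM and ratios are of TPM unless FPKM is named.

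**Figure D1:**
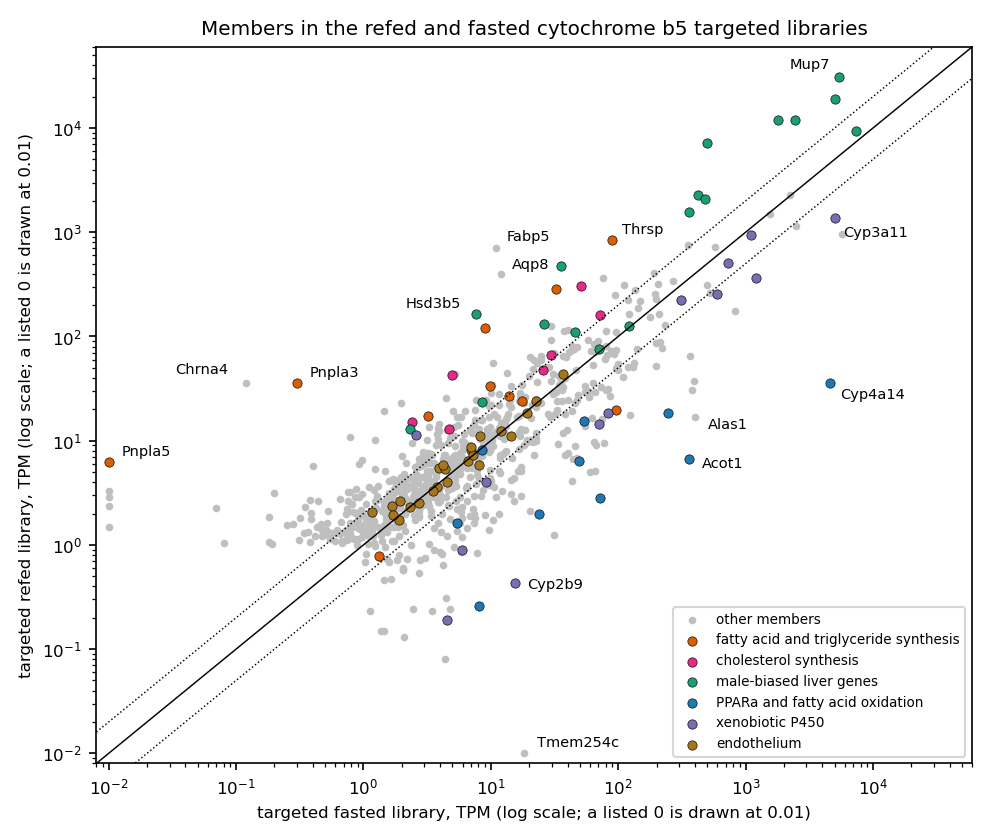
Level of each of the 810 members in TPM in the targeted refed library (vertical axis, log scale) against the targeted fasted library (horizontal axis, log scale), 1 library each; the solid line marks equal levels, the dotted lines 2-fold, and a listed 0 is drawn at 0.01. Synthesis and male-biased genes lie mostly above the lines, PPARa and P450 genes mostly below them, and the 24 endothelial genes within 2-fold on TPM.

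The genes of cholesterol synthesis stood higher in refed targeted liver. All 7 members of that list were above their fasted level and 6 were at least 2-fold higher (7 on FPKM), with a median log2 ratio of 1.48 (1.74 on FPKM). Sqle, the squalene epoxidase, had 42.5 TPM refed and 5.0 TPM fasted in targeted liver, 8.50-fold higher (7.11 to 10.2). Mvd, mevalonate diphosphate decarboxylase, had 14.95 TPM refed and 2.4 TPM fasted, 6.23-fold higher (4.43 to 8.98). Fdps, farnesyl diphosphate synthase, had 308 TPM refed and 51.0 TPM fasted, 6.03-fold higher. These 3 enzymes had the largest ratios of the list.

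The remaining sterol enzymes differed less. Lss, lanosterol synthase, had 12.97 TPM refed and 4.66 TPM fasted in targeted liver, 2.78-fold higher (2.44 to 3.18). Acat2, cytosolic acetoacetyl-CoA thiolase, had 66.0 TPM refed and 29.5 TPM fasted, 2.24-fold higher (2.03 to 2.47). Hmgcs1, the HMG-CoA synthase of the sterol pathway, had 161 TPM refed and 72.4 TPM fasted, 2.22-fold higher. Idi1, isopentenyl diphosphate isomerase, had 47.2 TPM refed and 25.65 TPM fasted, 1.84-fold higher, the smallest ratio of the 7. Summed over the list, targeted liver had 652 TPM refed and 191 TPM fasted, and control liver 1411 TPM refed and 152 TPM fasted. The list's median in control liver was 3.27. All 7 came from the refed table alone, where they had been listed for a lower level in targeted than in control refed liver, so a smaller ratio in the targeted pair was largely fixed by that choice. Mylip, which marks the LDL receptor for breakdown, was the single member among other sterol-regulated genes, with 3.5 TPM refed and 6.53 TPM fasted in targeted liver, 1.87-fold lower (1.48 to 2.36).

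Most genes of fatty acid and triglyceride synthesis stood higher in refed targeted liver. Of the 11 members of that list 7 were at least 2-fold higher (8 on FPKM) and 1 at least 2-fold lower in refed targeted liver, with a median of 2.42 (2.68 on FPKM, and 2.11 with a pseudocount of 1 TPM). Fasn, the fatty acid synthase, had 122 TPM refed and 9.01 TPM fasted, 13.5-fold higher. Thrsp (Spot 14), a regulator of lipogenesis, had 834 TPM refed and 89.4 TPM fasted, 9.33-fold higher. Acly, which makes cytosolic acetyl-CoA from citrate, had 283 TPM refed and 32.5 TPM fasted, 8.70-fold higher. All 3 had lower refed levels than control liver, which held 393 TPM of Fasn, 1899 TPM of Thrsp and 655 TPM of Acly refed. Acaca, the first committed enzyme of the pathway, had 33.6 TPM refed and 9.78 TPM fasted in targeted liver, 3.44-fold higher. Aacs, which activates acetoacetate for lipid synthesis, had 17.2 TPM refed and 3.22 TPM fasted, 5.34-fold higher (4.32 to 6.66).

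The patatin-like genes Pnpla3 and Pnpla5, which encode lipid droplet proteins, were close to absent in fasted targeted liver. Pnpla3, known in human for its link to fatty liver, had 35.5 TPM refed and 0.3 TPM fasted, 118-fold higher. Pnpla5 had 6.24 TPM refed and was listed at 0 fasted, from 159 reads against 0, which is at least 43.3-fold higher on the TPM scale with a floor of 3 reads in the fasted library. In control liver Pnpla3 had 96.5 TPM refed and 0.38 TPM fasted, and Pnpla5 had 12.7 TPM refed and 0.04 TPM fasted.

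The other 4 members of the list were within 2-fold or lower. Elovl6, which lengthens palmitate, had 26.6 TPM refed and 13.8 TPM fasted in targeted liver, 1.92-fold higher (1.77 to 2.09). Acacb, the acetyl-CoA carboxylase that restrains fatty acid oxidation, had 23.8 TPM refed and 17.4 TPM fasted, 1.37-fold higher (1.28 to 1.46). Mogat1, a monoacylglycerol acyltransferase, had 0.78 TPM refed and 1.32 TPM fasted, from 9 and 13 reads, 1.69-fold lower with an interval that includes no difference (0.669 to 4.49). Lpin1, a phosphatidate phosphatase known to be induced by fasting, had 19.6 TPM refed and 95.6 TPM fasted, 4.87-fold lower (4.59 to 5.17). Summed over the 11 genes, targeted liver had 1402 TPM refed and 272 TPM fasted, and control liver 3467 TPM refed and 279 TPM fasted. The fasted sums were close and the refed sums were not, in a list of which 8 members came from the refed table alone.

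**Figure D2:**
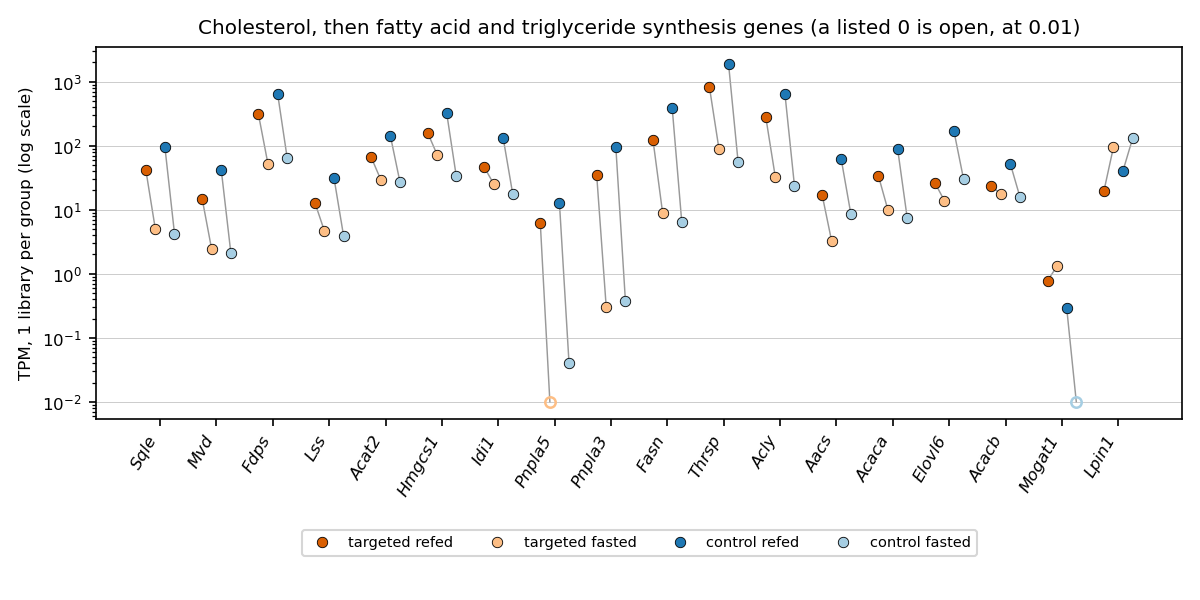
TPM (log scale) of the 7 cholesterol synthesis and 11 fatty acid and triglyceride synthesis members in 4 libraries, in order targeted refed, targeted fasted, control refed, control fasted, with a line joining each pair and open points for a listed 0. In targeted liver all but Mogat1 and Lpin1 are higher refed than fasted, and Pnpla5 is at 0 in targeted fasted liver.

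Promoter sequences are shown for 4 of these genes because SREBP factors are known to act there together with NF-Y, which binds the CCAAT box. They come from the RefSeq table for GRCm38.p6, run from 250 bases before to 50 after the transcription start, and are written on the gene's own strand, 5′ to 3′. Capitals mark the sterol regulatory element TCACNCCAC and the CCAAT box, each searched on both strands, so that a CCAAT box on the opposite strand reads ATTGG.
Hmgcs1, chr13:119690101-119690400, plus strand: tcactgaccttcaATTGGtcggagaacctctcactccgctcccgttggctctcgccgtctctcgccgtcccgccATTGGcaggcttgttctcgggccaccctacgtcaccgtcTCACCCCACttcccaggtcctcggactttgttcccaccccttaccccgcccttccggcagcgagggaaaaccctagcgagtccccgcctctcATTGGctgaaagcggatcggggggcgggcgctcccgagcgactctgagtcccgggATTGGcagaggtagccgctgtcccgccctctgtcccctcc
Fasn, chr11:120824498-120824797, minus strand: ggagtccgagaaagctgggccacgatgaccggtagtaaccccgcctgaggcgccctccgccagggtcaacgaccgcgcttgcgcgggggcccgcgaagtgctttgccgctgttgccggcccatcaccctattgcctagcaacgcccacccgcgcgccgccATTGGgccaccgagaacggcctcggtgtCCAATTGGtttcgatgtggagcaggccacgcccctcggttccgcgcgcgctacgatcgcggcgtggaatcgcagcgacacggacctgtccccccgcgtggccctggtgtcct
Pnpla3, chr15:84167566-84167865, plus strand: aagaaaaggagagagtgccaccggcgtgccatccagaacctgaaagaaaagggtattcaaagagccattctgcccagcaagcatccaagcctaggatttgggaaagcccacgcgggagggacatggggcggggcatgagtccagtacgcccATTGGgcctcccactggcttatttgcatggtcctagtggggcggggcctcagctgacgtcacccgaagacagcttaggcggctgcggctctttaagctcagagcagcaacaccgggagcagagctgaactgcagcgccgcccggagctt
Pnpla5, chr15:84123126-84123425, minus strand: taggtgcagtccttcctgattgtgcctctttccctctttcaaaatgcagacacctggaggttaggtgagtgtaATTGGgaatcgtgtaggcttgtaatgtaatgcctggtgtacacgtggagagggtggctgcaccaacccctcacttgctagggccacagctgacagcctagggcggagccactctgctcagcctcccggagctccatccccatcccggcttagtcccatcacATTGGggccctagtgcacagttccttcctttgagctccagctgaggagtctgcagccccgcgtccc

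The Hmgcs1 window held 1 sterol regulatory element, 137 bases before the start, and 4 CCAAT boxes. The Fasn window held 3 CCAAT boxes, the Pnpla3 window 1 and the Pnpla5 window 2, none with the sterol element in these letters. No sterol element overlapped a CCAAT box. Hmgcs1 was shown because its window holds the sterol element, and the others for a high ratio among genes with a CCAAT box. The presence of these motifs in the windows shown was thus set by the choice and is not a result. Of the 16 synthesis genes with a window in the table, 1 (6.25%) held TCACNCCAC, against 1.436% of all 27025 genes in it. CCAAT was found in 11 of the 16 (68.75%), against 41.06% of all genes and 45.16% of the 620 members with a window. The E-box CACGTG was in 1 of the 16 (6.25%), in Pnpla5, against 8.093% of all genes. The cyclic AMP half-site TGACG was in 2 of the 16 (12.5%), against 23.05% of all genes. These are matches of letters in a short window and not binding sites.

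Glucose uptake, glycolysis and glycogen genes had 5 members, of which 3 were at least 2-fold higher and 1 at least 2-fold lower (median 1.18, or 1.45 on FPKM). G6pdx, which supplies NADPH through the pentose phosphate pathway, had 14.5 TPM in targeted refed and 3.91 TPM in targeted fasted liver, 3.72-fold higher (2.94 to 4.75). The pair of glycogen-targeting subunits of protein phosphatase 1 in the list had opposite directions. Ppp1r3c had 48.9 TPM refed and 21.6 TPM fasted, 2.27-fold higher (2.06 to 2.50). Ppp1r3g had 1.24 TPM refed and 31.5 TPM fasted, 25.4-fold lower (17.8 to 37.4). Control liver had the same opposite directions, with 51.3 TPM refed and 2.57 TPM fasted for Ppp1r3c, and 0.28 TPM refed and 79.9 TPM fasted for Ppp1r3g. Slc2a1, a glucose transporter, had 5.7 TPM refed and 7.09 TPM fasted in targeted liver, a log2 ratio of -0.31 on TPM and -0.05 on FPKM.

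Most members of the list for PPARa, fatty acid oxidation and ketogenesis stood lower in refed targeted liver. Only 10 of the 49 listed genes are members, and enzymes of mitochondrial beta-oxidation and ketone synthesis are not among them. Of the 10 members of the PPARa, fatty acid oxidation and ketogenesis list 9 were at least 2-fold lower and 0 at least 2-fold higher, with a median of -3.67 (-3.41 on FPKM). Cyp4a14, a fatty acid omega-hydroxylase, had 36.0 TPM refed and 4604 TPM fasted, 128-fold lower (120 to 136). It made up most of the list's summed fasted level of 5436 TPM, which stood at 97.5 TPM refed. Acot1, a cytosolic acyl-CoA thioesterase, had 6.61 TPM refed and 362 TPM fasted, 54.8-fold lower (45.4 to 66.8). Cyp4a31, a related hydroxylase, had 2.82 TPM refed and 72.6 TPM fasted, 25.7-fold lower (20.6 to 32.5). Cyp4a and Acot genes have near-identical copies, so their single values are uncertain.

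Lipid droplet and uptake genes of the list had the same direction with 1 exception. Plin4, a lipid droplet coat protein, had 0.26 TPM refed and 8.02 TPM fasted, 30.8-fold lower (19.96 to 50.3). G0s2, an inhibitor of the triglyceride lipase ATGL, had 18.4 TPM refed and 248 TPM fasted, 13.5-fold lower (11.3 to 16.2). Fitm2, which takes part in lipid droplet budding, had 6.36 TPM refed and 48.9 TPM fasted, 7.69-fold lower (6.30 to 9.47). Cd36, a fatty acid translocase, had 15.3 TPM refed and 54.1 TPM fasted, 3.53-fold lower (3.20 to 3.91). Abcd2, a peroxisomal transporter of fatty acyl-CoA, had 1.61 TPM refed and 5.4 TPM fasted, 3.35-fold lower (2.70 to 4.19). Hilpda, another lipid droplet protein, was the exception at 8.1 TPM refed and 8.55 TPM fasted, 1.06-fold lower on TPM with an interval that includes no difference (0.743 to 1.495) and higher by 0.19 on the log2 scale on FPKM.

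Fgf21, the hormone that fasted liver releases under PPARa, had 1.97 TPM refed and 23.7 TPM fasted in targeted liver, 12.05-fold lower (7.30 to 21.2). In control liver it had 5.57 TPM refed and 21.3 TPM fasted, 3.82-fold lower. The fasted levels of both genotypes were close and the refed level was the lower one in targeted liver, and Fgf21 is in the refed table alone. A DR1 repeat, the half-site AGGTCA given in full on both sides of 1 free base as in PPARa response elements, was in 0 of the 7 genes of the list that have a promoter window, and in 0.0481% of all genes in that table.

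Gluconeogenesis and fasting regulators had 5 members, and all 5 were at least 2-fold lower on TPM and 4 on FPKM (median -1.88, or -1.61 on FPKM). Igfbp1, an IGF-binding protein held down by insulin, had 174 TPM in targeted refed and 821 TPM in targeted fasted liver, 4.72-fold lower. Sik1, a kinase induced by cyclic AMP, had 3.31 TPM refed and 12.2 TPM fasted, 3.67-fold lower (3.10 to 4.36). Sds, the serine dehydratase that feeds serine into gluconeogenesis, had 78.2 TPM refed and 221 TPM fasted, 2.82-fold lower (2.61 to 3.05). Cebpb, a transcription factor of the fasting response, had 26.0 TPM refed and 58.7 TPM fasted, 2.26-fold lower on TPM (2.01 to 2.55) and within 2-fold on FPKM. The fifth member was Lpin1, given above. The refed levels of Igfbp1 and Sik1 were nearly the same in both genotypes, at 174 TPM targeted and 173 TPM control for Igfbp1, and at 3.31 TPM targeted and 3.42 TPM control for Sik1. Of the 5 members 4 came from the fasted table alone, so they had not passed the genotype threshold in refed liver. A small genotype difference in refed liver was thus largely set by that choice.

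The 4 members for amino acid catabolism had a median of -1.15 (-0.89 on FPKM), with 2 at least 2-fold lower and 0 at least 2-fold higher. Slc25a25, a mitochondrial carrier of ATP-magnesium and phosphate, had 17.7 TPM in targeted refed and 124 TPM in targeted fasted liver, 7.01-fold lower (6.46 to 7.62), and Sds, given above, was the other. Sdsl, a relative of Sds, had 6.79 TPM refed and 11.9 TPM fasted, 1.75-fold lower (1.33 to 2.31). Ddc, the aromatic amino acid decarboxylase, had 73.3 TPM refed and 60.7 TPM fasted, 1.21-fold higher (1.12 to 1.30).

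Both metallothionein members were at least 2-fold lower in refed targeted liver. Mt1 and Mt2, the metallothioneins, bind zinc and copper and are induced by glucocorticoids. Mt2 had 30.5 TPM refed and 381 TPM fasted in targeted liver, 12.5-fold lower (10.2 to 15.4). Mt1 had 37.35 TPM refed and 392 TPM fasted, 10.5-fold lower (8.73 to 12.7). Summed, they had 67.9 TPM refed and 773 TPM fasted in targeted liver, against 36.7 TPM refed and 1755 TPM fasted in control liver, and both are short genes with similar copies. Among the members with the lowest ratios were also 2 single genes, Alas1 and Lepr. Alas1, the rate-limiting enzyme of haem synthesis, had 17.05 TPM refed and 402 TPM fasted in targeted liver, 23.6-fold lower (21.6 to 25.8). Lepr, the leptin receptor, had 5.17 TPM refed and 65.7 TPM fasted, 12.7-fold lower (11.3 to 14.3). For Alas1 control liver had 43.95 TPM refed and 356 TPM fasted, and for Lepr 2.38 TPM refed and 71.7 TPM fasted.

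**Figure D3:**
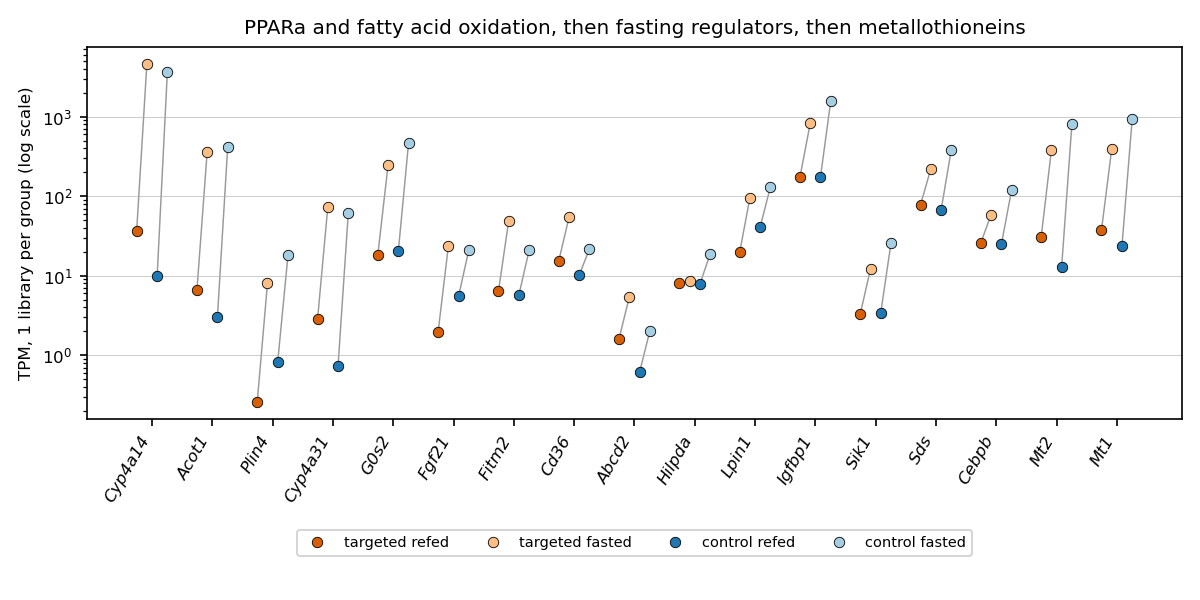
TPM (log scale) of the 10 members of the PPARa and fatty acid oxidation list, the 5 gluconeogenesis and fasting regulators and the 2 metallothioneins in 4 libraries, in order targeted refed, targeted fasted, control refed, control fasted, with a line joining each pair. In targeted liver every gene shown is lower refed than fasted on TPM, by 1.06-fold for Hilpda and by at least 2-fold for the rest.

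Microsomal P450 genes for foreign compounds were mostly lower in refed targeted liver. Of 13 members 9 were at least 2-fold lower (7 on FPKM) and 1 at least 2-fold higher, with a median of -1.73 (-1.46 on FPKM), and their summed level was 3727 TPM refed and 9184 TPM fasted. Cyp3a11, which oxidises many drugs and steroids, had 1373 TPM refed and 5037 TPM fasted, 3.67-fold lower. Cyp3a25 had 366 TPM refed and 1215 TPM fasted, 3.31-fold lower. Cyp2b9 had 0.43 TPM refed and 15.4 TPM fasted, 35.8-fold lower (18.6 to 79.2). Cyp2b10, a classical target of the receptor CAR, had 0.19 TPM refed and 4.51 TPM fasted, 23.7-fold lower (8.90 to 89.3). Cyp2b9 and Cyp2b10 rest on few refed reads, 9 for the first and 4 for the second.

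The Cyp2c genes did not share a direction. Cyp2c38 had 14.5 TPM refed and 70.3 TPM fasted, 4.86-fold lower (4.34 to 5.45), while Cyp2c55 had 11.3 TPM refed and 2.58 TPM fasted, 4.39-fold higher (3.21 to 6.13). Cyp2c29, at 951 TPM refed and 1108 TPM fasted, had a log2 ratio of -0.22 on TPM and 0.05 on FPKM. All these families have near-identical copies, so single values are uncertain. In control liver 7 of the same 13 genes were at least 2-fold lower and 1 at least 2-fold higher, and Cyp2b9 was at 0.1 TPM refed and 0.15 TPM fasted. Of the 13, 7 came from the fasted table alone, where they had been listed as higher in targeted liver, a choice that raises the fasted side of the targeted pair.

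Glutathione transferases and NRF2 targets had no common direction. Of 13 members 2 were at least 2-fold higher and 2 at least 2-fold lower (3 and 1 on FPKM), and the median of -0.17 turned to 0.09 on FPKM. Among all 810 members 22.3% were at least 2-fold higher and 18.9% at least 2-fold lower on TPM. Gsta1, an alpha-class transferase, had 16.1 TPM refed and 74.97 TPM fasted in targeted liver, 4.66-fold lower (3.80 to 5.75). Gstm4, of the mu class, had 67.0 TPM refed and 30.03 TPM fasted, 2.23-fold higher (1.99 to 2.50). Gstm1, with the highest level of the list, had 2279 TPM refed and 2226 TPM fasted. Nqo1, a quinone reductase driven by NRF2, had 5.49 TPM refed and 7.14 TPM fasted, with an interval that includes no difference (0.967 to 1.75). These transferases also have close copies.

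Bile acid synthesis and transport had 6 members with 4 at least 2-fold lower (3 on FPKM) and 1 at least 2-fold higher (median -1.22, or -0.95 on FPKM). Cyp7a1, which starts the classical route to bile acids, had 9.04 TPM refed and 66.9 TPM fasted in targeted liver, 7.40-fold lower (6.70 to 8.19). Slco1a4, an organic anion uptake transporter, had 9.52 TPM refed and 77.3 TPM fasted, 8.12-fold lower (7.34 to 9.01). Abcc3, which exports conjugates to the blood, had 31.2 TPM refed and 83.3 TPM fasted, 2.67-fold lower (2.53 to 2.82). Cyp8b1, the sterol 12-alpha-hydroxylase, had 260.2 TPM refed and 527 TPM fasted, 2.03-fold lower on TPM and within 2-fold on FPKM. Cyp7b1, the oxysterol hydroxylase, had the other direction, with 110.3 TPM refed and 46.1 TPM fasted, 2.39-fold higher (2.22 to 2.58). Abcb11, the bile salt export pump, had 231 TPM refed and 198 TPM fasted, 1.17-fold higher.

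In control liver Cyp8b1 stood at 262 TPM refed and 177 TPM fasted, the opposite direction to targeted liver. Of the 6 bile acid members 3 came from the fasted table alone and 3 from both. Cyp8b1 was close between the genotypes refed and higher in targeted liver fasted. A choice on the fasted difference raises the fasted side of the targeted pair for such a gene and lowers that of the control pair. Cyp7a1 there had 4.16 TPM refed and 13.7 TPM fasted. Sterol export genes among the LXR targets lay just inside 2-fold. Abcg5 had 50.1 TPM refed and 96.5 TPM fasted in targeted liver, 1.93-fold lower (1.80 to 2.06). Its partner Abcg8 had 29.7 TPM refed and 58.0 TPM fasted, 1.96-fold lower (1.82 to 2.10). Lpl, the lipoprotein lipase, had 22.4 TPM refed and 13.96 TPM fasted, 1.61-fold higher (1.45 to 1.78), and Arl4c, a small GTPase, had 1.78 TPM refed and 0.91 TPM fasted, 1.96-fold higher (1.31 to 2.97). The 6 LXR members had a median of -0.92 (-0.66 on FPKM), and Cyp7a1 was the 1 among them past 2-fold on TPM, with Arl4c past it on FPKM.

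Genes known to be higher in male than in female mouse liver stood higher in refed targeted liver. Of 17 members 14 were at least 2-fold higher and 0 at least 2-fold lower (median 2.29, or 2.56 on FPKM). Hsd3b5, a steroid reductase, had 165 TPM refed and 7.69 TPM fasted, 21.5-fold higher (17.7 to 26.2). Serpina1e, of the alpha-1-antitrypsin family, had 7226 TPM refed and 501 TPM fasted, 14.4-fold higher. Selenbp2, a selenium-binding protein, had 477 TPM refed and 35.3 TPM fasted, 13.5-fold higher (12.4 to 14.8). The sources used here do not give the sex of the mice, and 16 of the 17 came from the fasted table alone. Summed over the list, targeted fasted liver had 24143.5 TPM and control fasted liver 66836 TPM. For genes listed for a lower targeted fasted level, that choice raises the refed over fasted ratio in targeted liver. Ugt2b38, a glucuronosyltransferase, had 13.03 TPM refed and 2.3 TPM fasted in targeted liver, 5.67-fold higher (4.04 to 8.14).

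The major urinary proteins, pheromone carriers that the liver secretes, made up most of this list. Mup7 had 30738.5 TPM refed and 5444 TPM fasted in targeted liver, 5.65-fold higher, and Mup15 had 12023 TPM refed and 1795 TPM fasted, 6.70-fold higher. Mup10 had 9382 TPM refed and 7314 TPM fasted, 1.28-fold higher, and Mup9 had 126 TPM refed and 122 TPM fasted, with an interval that includes no difference (0.938 to 1.13). The Mup genes are near-identical copies, so single values are uncertain. Together 11 Mup genes took 8.93% of all TPM in targeted refed and 2.35% in targeted fasted liver, against 12.9% in control refed and 6.32% in control fasted liver. Without them the members held 3.56% of all TPM in targeted refed and 4.40% in targeted fasted liver.

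Genes known to be higher in female liver were at least 2-fold lower in 7 of 7 members (median -3.60, or -3.33 on FPKM). Apart from Cyp4a14, Cyp2b9, Cyp2b10, Cyp2c38 and Abcd2, given above, they were Cyp17a1 and Cyp2a4. Cyp17a1, a steroid 17-alpha-hydroxylase, had 4.96 TPM refed and 60.01 TPM fasted, 12.1-fold lower (9.85 to 15.0). Cyp2a4, a steroid hydroxylase, had 0.9 TPM refed and 5.98 TPM fasted, 6.64-fold lower (3.93 to 11.9). In control liver 6 of the 7 were also at least 2-fold lower, and 12 of the 17 male-biased genes were at least 2-fold higher. Among all 810 members 18.9% were at least 2-fold lower in targeted liver. Of the 7 female-biased members 5 came from the fasted table alone, 1 from the refed table alone and 1 from both. For genes listed for a higher targeted fasted level, that choice lowers the refed over fasted ratio in targeted liver.

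**Figure D4:**
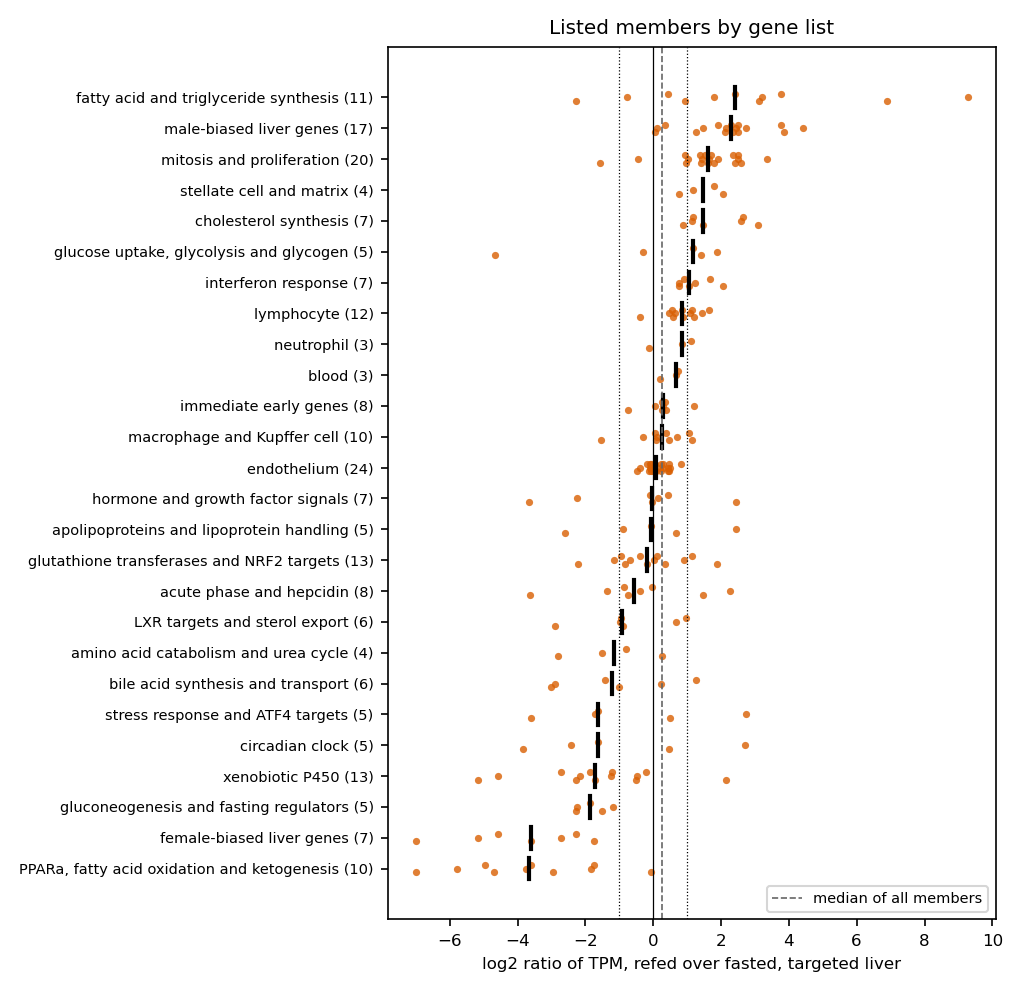
Log2 ratio of TPM, refed over fasted targeted liver, of each listed member (points) by gene list, with the number of members in brackets, black bars at list medians, dotted lines at 2-fold and a dashed line at the median of all members (0.26). Some genes are in more than 1 list; list medians run from 2.42 for fatty acid and triglyceride synthesis to -3.67 for the PPARa list, and the endothelial median is 0.08.

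The circadian clock list had 5 members with 3 at least 2-fold lower and 1 at least 2-fold higher (median -1.63, or -1.36 on FPKM, and -0.58 among members with at least 5 TPM in either targeted library). Nr1d2, a nuclear receptor of the clock, had 12.8 TPM refed and 39.5 TPM fasted in targeted liver, 3.09-fold lower (2.84 to 3.38). Dbp, a clock output factor, had 0.95 TPM refed and 5.13 TPM fasted, 5.40-fold lower (3.11 to 9.95). Ciart, a clock repressor, had 0.31 TPM refed and 4.41 TPM fasted, 14.2-fold lower (6.17 to 40.3). The sources used here do not give the hour of collection, so feeding state and clock time cannot be told apart. Npas2, which pairs with BMAL1, had 6.03 TPM refed and 0.92 TPM fasted, 6.55-fold higher (4.65 to 9.49). Nr1d1, a paralog of Nr1d2, had 12.97 TPM refed and 9.37 TPM fasted, 1.38-fold higher (1.18 to 1.63). The same list in control liver had a median of -4.17.

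Stress and ATF4 target genes had 5 members with 3 at least 2-fold lower, Fgf21 among them, and 1 at least 2-fold higher (median -1.63, or -1.36 on FPKM). Sesn2, a sestrin that restrains mTORC1, had 2.22 TPM refed and 7.23 TPM fasted in targeted liver, 3.26-fold lower (2.46 to 4.36). Ddit4, another brake on mTORC1, had 5.56 TPM refed and 17.2 TPM fasted, 3.09-fold lower (2.45 to 3.93). Derl3, which takes part in the disposal of misfolded secretory proteins, had 6.48 TPM refed and 0.98 TPM fasted, 6.61-fold higher (3.52 to 13.7). Gdf15, a stress hormone, had 2.86 TPM refed and 2.01 TPM fasted, with an interval that includes no difference (0.850 to 2.43).

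Among apolipoprotein and lipoprotein genes 1 of 5 was at least 2-fold higher and 1 at least 2-fold lower, and the median of -0.06 turned to 0.20 on FPKM. Over all members the shares were 22.3% higher and 18.9% lower. Apoa4, a lipoprotein component known to be induced in fasted liver, had 955 TPM refed and 5740.5 TPM fasted in targeted liver, 6.01-fold lower. Angptl8, an insulin-induced inhibitor of lipoprotein lipase, had 56.1 TPM refed and 10.3 TPM fasted, 5.44-fold higher (4.16 to 7.20). Scarb1, the HDL receptor, had 75.8 TPM refed and 140.2 TPM fasted, 1.85-fold lower (1.75 to 1.95). The 7 members among hormone and growth factor signals also split, with 1 higher (Angptl8) and 2 lower (Lepr and Igfbp1) by at least 2-fold, and their median of -0.04 turned to 0.22 on FPKM.

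Acute phase and hepcidin genes had both directions, with 2 of 8 at least 2-fold higher and 2 at least 2-fold lower (median -0.56, or -0.30 on FPKM). Over all members the shares were 22.3% higher and 18.9% lower. Saa2, a serum amyloid A with close copies, had 367 TPM refed and 76.3 TPM fasted in targeted liver, 4.81-fold higher (4.21 to 5.50). Saa3 had 59.8 TPM refed and 21.8 TPM fasted, 2.75-fold higher (2.14 to 3.57). Orm3, an orosomucoid, had 3.78 TPM refed and 9.67 TPM fasted, 2.56-fold lower (1.66 to 4.01), and Mt2, given above, was the other lower gene. Hamp, which encodes the iron hormone hepcidin, had 1508 TPM refed and 1554 TPM fasted, and its interval included no difference (0.971 to 1.09).

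Among immediate early genes, Fos alone of 8 passed 2-fold, and the median was 0.28 (0.54 on FPKM). Fos, a subunit of the AP-1 factor, had 2.01 TPM refed and 0.87 TPM fasted in targeted liver, 2.31-fold higher (1.30 to 4.29). Gadd45g, a growth arrest gene, had 33.2 TPM refed and 55.3 TPM fasted, 1.67-fold lower (1.45 to 1.92). The others were 1.04-fold to 1.31-fold higher. In control liver 6 of the 8 were at least 2-fold lower. Of the 8, 7 came from the fasted table alone, and the list summed to 139 TPM in targeted and 366 TPM in control fasted liver. That choice lowers the fasted side of the targeted pair and raises that of the control pair. Of the lists for heat shock genes, ribosome biogenesis and cholangiocytes 0 genes are in the tables.

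Outside these lists some of the widest contrasts belonged to transport and binding proteins. Chrna4, a subunit of the nicotinic acetylcholine receptor, had 36.0 TPM refed and 0.12 TPM fasted in targeted liver, 300.3-fold higher (128 to 926), from 1859 and 5 reads. Fabp5, a fatty acid binding protein, had 711 TPM refed and 11.1 TPM fasted, 64.3-fold higher (51.5 to 81.3). Aqp8, a water channel, had 402 TPM refed and 12.1 TPM fasted, 33.3-fold higher (28.4 to 39.3). All 3 were also higher in refed control liver, which held 77.8 TPM of Chrna4 refed and 0.41 TPM fasted, 1006 TPM of Fabp5 refed and 42.6 TPM fasted, and 559 TPM of Aqp8 refed and 5.07 TPM fasted. Foxq1, a forkhead transcription factor, had 22.8 TPM refed and 1.96 TPM fasted in targeted liver, 11.6-fold higher (8.79 to 15.7). Cib3, of the calcium- and integrin-binding family, had 10.9 TPM refed and 0.78 TPM fasted, 13.96-fold higher with a wide interval (4.52 to 69.9) from 51 and 3 reads. Tmem254c, a membrane protein gene with near-identical neighbours, was listed at 0 refed and at 18.3 TPM fasted, from 0 and 189 reads, at least 77.0-fold lower on the TPM scale with a floor of 3 reads in the refed library. In control liver Tmem254c had 4.09 TPM refed and 9.52 TPM fasted.

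Transcripts that mark endothelium stood at nearly the same level in refed and fasted targeted liver. Of 24 endothelial members 0 were at least 2-fold higher or lower on TPM and 1 (Rasip1) was at least 2-fold higher on FPKM, and the median was 0.08 (0.34 on FPKM), with 15 genes above 0 on TPM and 22 on FPKM. Their summed level was 200 TPM in targeted refed and 187 TPM in targeted fasted liver, against 132 TPM in control refed and 382 TPM in control fasted liver, where 22 of the 24 were at least 2-fold lower. In bulk tissue, fewer cells of a type and less RNA per cell cannot be told apart. Pecam1, an adhesion molecule of endothelium in general, had 7.21 TPM refed and 7.18 TPM fasted in targeted liver, against 4.48 TPM refed and 14.9 TPM fasted in control liver. Rasip1, needed for vessel lumens, had 2.05 TPM refed and 1.17 TPM fasted in targeted liver, 1.75-fold higher (1.17 to 2.68), the widest ratio of the list. Lyve1, of sinusoidal endothelium, had 5.81 TPM refed and 8.03 TPM fasted, 1.38-fold lower (1.12 to 1.70). Of the 24, 23 came from the fasted table alone, where they had been listed for a lower level in targeted than in control fasted liver, a choice that lowers the fasted side of the targeted pair and raises that of the control pair.

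Macrophage and Kupffer cell genes had 10 members, with 2 at least 2-fold higher and 1 at least 2-fold lower (median 0.25, or 0.52 on FPKM). These values lie near those of all 810 members, with 22.3% higher, 18.9% lower and a median of 0.26 (0.53 on FPKM). Aif1, a calcium-binding protein of macrophages, had 22.2 TPM refed and 10.1 TPM fasted in targeted liver, 2.19-fold higher (1.66 to 2.93). Fcer1g, the common signalling chain of Fc receptors, had 41.7 TPM refed and 20.1 TPM fasted, 2.07-fold higher (1.59 to 2.72). Cd163, the scavenger receptor for haemoglobin, had the other direction, with 3.62 TPM refed and 10.6 TPM fasted, 2.93-fold lower (2.46 to 3.48). Marco, a Kupffer cell scavenger receptor, had 13.03 TPM refed and 8.08 TPM fasted, 1.61-fold higher (1.31 to 1.99), against 4.69 TPM refed and 23.8 TPM fasted in control liver. Of the 10, 7 came from the fasted table alone, and the list summed to 222 TPM in targeted and 341 TPM in control fasted liver. That choice lowers the fasted side of the targeted pair and raises that of the control pair.

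Lymphocyte genes had 12 members, 5 of them at least 2-fold higher (7 on FPKM) and 0 at least 2-fold lower (median 0.85, or 1.12 on FPKM). Their summed level was 105 TPM in targeted refed and 59.3 TPM in targeted fasted liver, against 64.1 TPM in control refed and 144 TPM in control fasted liver. Of the 12, 11 came from the fasted table alone, chosen on the genotype difference in fasted liver. With the lower targeted sum there, that choice lowers the fasted side of the targeted pair and raises that of the control pair. Cd37, a tetraspanin of B cells, had 2.88 TPM refed and 0.92 TPM fasted in targeted liver, 3.13-fold higher (1.60 to 6.70). Lck, the proximal kinase of the T cell receptor, had 1.38 TPM refed and 0.51 TPM fasted, 2.71-fold higher (1.30 to 6.17), from 32 and 10 reads. Rac2, a GTPase of blood cells, had 4.74 TPM refed and 2.07 TPM fasted, 2.29-fold higher (1.70 to 3.12). Cd3g, a chain of the T cell receptor complex, had 2.7 TPM refed and 1.27 TPM fasted, 2.13-fold higher with an interval that includes no difference (0.992 to 4.94). Rgs1, a regulator of G protein signals, was the single member lower, with 1.98 TPM refed and 2.59 TPM fasted. Of the 7 defining lymphocyte markers 3 are members (Cd3g, Lck and Nkg7), with a sum of 8.01 TPM refed and 4.44 TPM fasted, and none of the 3 was at 0.

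The neutrophil list had 3 members, 1 of them at least 2-fold higher (2 on FPKM) and 0 at least 2-fold lower (median 0.84, or 1.13 on FPKM), against a median of -1.23 in control liver. S100a9, a calcium-binding protein of neutrophil granules, had 11.04 TPM refed and 5.14 TPM fasted in targeted liver, 2.15-fold higher (1.105 to 4.43). Il1b, the cytokine interleukin 1 beta, had 1.58 TPM refed and 0.88 TPM fasted, with an interval that includes no difference (0.816 to 4.25). Fpr1, a receptor for formyl peptides, had 3.68 TPM refed and 4.05 TPM fasted, a log2 ratio of -0.14 on TPM and 0.13 on FPKM. Stellate cell and matrix genes had 4 members, 3 of them at least 2-fold higher on TPM and 4 on FPKM (median 1.48, or 1.74 on FPKM). Col3a1, a fibrillar collagen, had 13.45 TPM refed and 3.25 TPM fasted in targeted liver, 4.14-fold higher (3.53 to 4.87). Tagln, a marker of contractile cells, had 13.25 TPM refed and 3.85 TPM fasted, 3.44-fold higher (2.54 to 4.73). Mmp2, a matrix metalloproteinase, had 1.29 TPM refed and 0.57 TPM fasted, 2.26-fold higher (1.28 to 4.20), and Vim, vimentin, had 18.2 TPM refed and 10.7 TPM fasted, 1.71-fold higher (1.42 to 2.05). In control liver the list had a median of 0.16, and its members differed in direction. Col3a1 and Tagln were higher refed there too, with 12.8 TPM refed and 6.04 TPM fasted for Col3a1, and 15.6 TPM refed and 7.7 TPM fasted for Tagln. Mmp2 and Vim were lower refed there, with 0.93 TPM refed and 1.53 TPM fasted for Mmp2 (log2 ratio -0.72), and 14.95 TPM refed and 24.4 TPM fasted for Vim (-0.71). The 3 blood members, all globins, had a summed level of 217 TPM refed and 161 TPM fasted in targeted liver, against 158 TPM refed and 312 TPM fasted in control liver. All neutrophil, stellate and blood members (3, 4 and 3) came from the fasted table alone. Each list had a lower sum in targeted than in control fasted liver. That choice lowers the fasted side of the targeted pair and raises that of the control pair.

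Interferon response genes were all above their fasted level in targeted liver, 7 of 7, and 4 were at least 2-fold higher on TPM and 7 on FPKM (median 1.04, or 1.31 on FPKM and 0.85 with a pseudocount of 1 TPM). Ifi27l2a, an interferon-induced membrane protein gene, had 125 TPM refed and 29.8 TPM fasted, 4.20-fold higher (3.15 to 5.68). Cmpk2, a mitochondrial nucleotide kinase, had 10.1 TPM refed and 3.15 TPM fasted, 3.21-fold higher (2.56 to 4.05). Oasl2, of the oligoadenylate synthetase family, had 7.64 TPM refed and 3.24 TPM fasted, 2.36-fold higher (1.84 to 3.05). In control liver Ifi27l2a had 55.1 TPM refed and 63.8 TPM fasted, and 0 of the 7 genes passed 2-fold in either direction. The lymphocyte sums given above were likewise higher refed in targeted and lower refed in control liver, and their part in this was not tested. Among all 810 members 22.3% were at least 2-fold higher on TPM in targeted liver. Of the 7 interferon members 4 came from the fasted table alone, 2 from the refed table alone and 1 from both. The list summed to 50.7 TPM in targeted and 93.8 TPM in control fasted liver, and to 169 TPM in targeted and 81.1 TPM in control refed liver. With these sums, that choice lowers the fasted side or raises the refed side of the targeted pair.

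Mitosis and proliferation genes had 20 members, 18 of them above their fasted level in targeted liver on both scales, 16 at least 2-fold higher (18 on FPKM) and 1 at least 2-fold lower (median 1.62, or 1.90 on FPKM). The median was 0.81 with a pseudocount of 1 TPM and 0.24 among members with at least 5 TPM in either targeted library, both under 2-fold. Few of the 20 genes reached 5 TPM, and both genes that were lower refed, Spc25 and Tk1, were among them. Mcm5, a subunit of the replicative helicase, had 1.86 TPM refed and 0.18 TPM fasted, 10.3-fold higher (4.54 to 29.0), from 77 and 6 reads. Cdc20, an activator of the anaphase-promoting complex, had 2.65 TPM refed and 0.44 TPM fasted, 6.02-fold higher (2.73 to 15.7). Ccnb1, the mitotic cyclin B, had 1.8 TPM refed and 0.32 TPM fasted, 5.62-fold higher (2.53 to 14.7). These levels were low, and several rested on fewer than 10 fasted reads. Spc25, a kinetochore protein, had 7.36 TPM refed and 21.9 TPM fasted, 2.97-fold lower (2.38 to 3.74), and Tk1, thymidine kinase, had 12.2 TPM refed and 16.65 TPM fasted, 1.37-fold lower (1.103 to 1.70). All 20 are in the refed table, 18 of them there alone, where they had been listed as higher in targeted liver, a choice that raises the refed side of the targeted pair. In control liver 2 were at least 2-fold higher and 4 at least 2-fold lower, with a median of -0.38. The lymphocyte sums were higher refed in targeted liver here too, and their part was not tested.

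**Figure D5:**
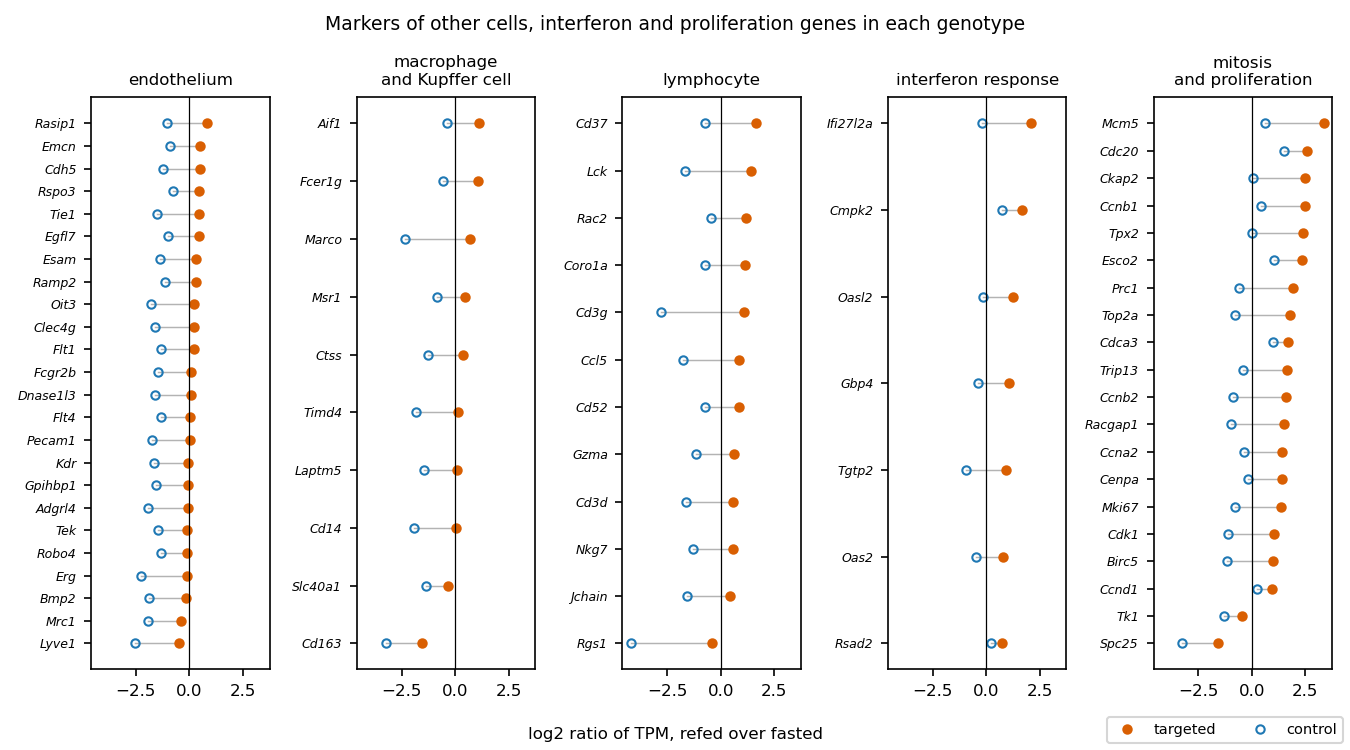
Log2 ratio of TPM, refed over fasted (horizontal axis), of the endothelial, macrophage and Kupffer cell, lymphocyte, interferon response and mitosis members, with filled points for targeted and open points for control liver, 1 library per group. For each gene shown the targeted point lies right of the control point. The endothelial medians are 0.08 targeted and -1.50 control, and the mitosis medians 1.62 targeted and -0.38 control.

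How a gene entered the tables went with its ratio. The 204 members listed in the fasted table as higher in targeted liver had 18 at least 2-fold higher and 76 at least 2-fold lower (median -0.50, or -0.24 on FPKM), against a control median of 0.65. The 414 listed there as lower had 95 higher and 38 lower (median 0.45), against a control median of -1.10. In the refed table the 199 members listed as higher had 60 at least 2-fold higher and 41 at least 2-fold lower. Their median was 0.14, against a control median of -0.94. The 52 listed as lower had 21 higher and 15 lower (median 0.50), against a control median of 1.99. For the fasted table these shifts are set in part by the choice of genes on 1 of the 2 libraries in each ratio. For the refed table that choice raises the targeted ratio of genes listed as higher and lowers that of genes listed as lower. The targeted medians there had the other order, and the cause was not tested. These values say nothing of genes outside the tables.

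Transcript length, as implied by reads per FPKM, also went with the ratio in 773 members. The shortest tertile, with a median of 1.28 kb, had a median log2 ratio of 0.41 and 28.3% of genes at least 2-fold higher. The middle tertile (2.81 kb) had a median of 0.27 and 24.1% at least 2-fold higher. The longest (5.31 kb) had a median of 0.01 and 12.02% at least 2-fold higher, with 22.1% at least 2-fold lower. In control liver the medians of the same tertiles were -0.84, -0.75 and -0.77. The part of transcript length in the ratios of the named genes was not tested.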

How the data were processed

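Members and gene lists were chosen with earlier results of these data known. Liver RNA was extracted with TRIzol, per the labels. For aligner, annotation, build and strandedness the sources used here say nothing. Per the file headers, the deposited tables give TPM and FPKM of the 4 libraries, with 2 decimals, for genes past a genotype threshold in the fasted or the refed state. They also hold the authors' log2 ratio of targeted over control and the authors' p-value, which compare reads of single libraries and were not used as tests.

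The first sheets were joined by symbol, genes with at least 1 TPM in either targeted library were kept, and the log2 ratio of refed over fasted was computed from TPM and again from FPKM, with a listed 0 entered as 0.01 TPM. Whole reads were solved from the deposited p-value and log2 ratio as a doubled Audic-Claverie tail, within a relative tolerance of 0.001, for 696 of 696 fasted-table and 263 of 263 refed-table genes with a p-value above 1e-290. Reads in the other targeted library were estimated from reads per FPKM, and among genes in both tables such an estimate lay within 5% of the solved reads in 45 of 50 cases in each direction. Counting intervals used both and ignore the spread between animals. No test was run, since each group has 1 library. Named genes were the 12 highest and the 12 lowest ratios among members with at least 10 TPM in the higher library and past 2-fold on both scales, all members of lists with up to 5, and in longer lists the 5 widest with those of the opposite direction. Other list members described, such as Acaca, Hmgcs1, Cyp3a11, Mup7, Hamp and Pecam1, were chosen after their values were seen. The values of 1 listed member are not reported here. Promoters were matched by gene identifier, for 620 members. Alternatives were FPKM, a pseudocount of 1 TPM, other level limits, each table alone and centring on the median. Python 3.11.15, pandas 2.3.3, NumPy 2.4.6, SciPy 1.17.1 and matplotlib 3.10.9 were used, and the solving step was tested on simulated data.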

Additional observations from a re-analysis of the deposited data

Results flagged for a closer look

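In 3 of the named genes the refed over fasted ratio was at least 2-fold in opposite directions in the 2 genotypes, on TPM and on FPKM. Fos had a log2 ratio of 1.21 in targeted liver and -1.47 in control liver, from 48 reads refed and 17 reads fasted in targeted liver. Lck, the T cell kinase, had a log2 ratio of 1.44 in targeted and -1.66 in control liver, from 32 and 10 reads. Cd3g, the T cell receptor chain, had a log2 ratio of 1.09 in targeted and -2.78 in control liver, from 26 and 10 reads. All 3 are in the fasted table alone, for a lower level in targeted than in control fasted liver, and the difference between the genotypes was not tested. Over all members, 16 were at least 2-fold higher refed in targeted and at least 2-fold lower refed in control liver on both scales, 13 of them in the fasted table, and 4 had the opposite pattern, 3 of them in that table. Of all 810 members 618 are in that table, a share near which both counts lie. It lists 414 members as lower and 204 as higher in targeted liver, so the 16 and 4 are set in part by the choice of genes.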

How the results depend on the processing

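The 181 higher and 153 lower members became 83 and 85 when at least 10 TPM was asked for (of 323 genes), 109 and 117 at 5 TPM (of 469), 113 and 114 among genes of the fasted table (of 618), and 81 and 56 among genes of the refed table (of 251). These settings count fewer genes. Within 1.5 times of both counts lay FPKM (253 higher, 120 lower), a pseudocount of 1 TPM (121 and 130), no level limit (220 and 170 of 942), centring on the median (132 and 180) and, chosen after seeing the data, only genes whose counting interval excludes no difference (159 and 142 of 553). Of the 26 lists with at least 3 members, 7 had a median at least 2-fold higher on TPM, against 9 on FPKM, 5 with the pseudocount and 6 at 5 TPM, and 8 had one at least 2-fold lower, against 6, 8 and 7. Of the 143 named genes, 52 were at least 2-fold higher and 39 at least 2-fold lower, with 60 and 36 on FPKM and 43 and 39 with the pseudocount. No called value changed direction under these settings. Leaving out a library was not possible, because each group has 1. No paired analysis was possible because each group has 1 library and the labels give no replicate numbers. The number of reads limits low genes, such as those of mitosis, and the spread between animals is unknown.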

Other observations

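Some genes outside the lists, chosen after their values were seen, also differed between refed and fasted targeted liver. Cyp26a1, the retinoic acid hydroxylase, had 10.1 TPM refed and 1.24 TPM fasted in targeted liver, 8.11-fold higher (4.99 to 14.003). Sec61b, a subunit of the translocon, had 252 TPM refed and 94.35 TPM fasted, 2.67-fold higher (2.33 to 3.07), and Fkbp11, a prolyl isomerase of the endoplasmic reticulum, had 45.0 TPM refed and 13.5 TPM fasted, 3.33-fold higher (2.53 to 4.44). Serpina12 (vaspin) had 43.5 TPM refed and 5.23 TPM fasted, 8.32-fold higher (7.17 to 9.71), and Leap2, a peptide that blocks the ghrelin receptor, had 309 TPM refed and 112 TPM fasted, 2.77-fold higher (2.40 to 3.20).

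Nnmt, which methylates nicotinamide, had 65.2 TPM refed and 364 TPM fasted in targeted liver, and 86.7 TPM refed and 724 TPM fasted in control liver. Bhmt, which remethylates homocysteine from betaine, had 1151 TPM refed and 2481 TPM fasted in targeted liver, 2.15-fold lower on TPM and within 2-fold on FPKM, against 2201 TPM refed and 837 TPM fasted in control liver. Bhmt is in the fasted table alone, for a higher level in targeted liver, a choice that raises the fasted side of the targeted pair. Gpat3, a glycerol-3-phosphate acyltransferase, had 2.1 TPM refed and 20.4 TPM fasted in targeted liver, 9.73-fold lower (7.59 to 12.6), the direction opposite to most lipid synthesis members. Abhd2, a lipase of the alpha/beta hydrolase family, had 4.11 TPM refed and 43.75 TPM fasted, 10.6-fold lower (8.94 to 12.8). Slc10a2, the apical bile acid transporter, had 12.7 TPM refed and 4.53 TPM fasted in targeted liver, 2.81-fold higher (2.38 to 3.32), and 18.7 TPM refed and 18.6 TPM fasted in control liver.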
